A study of Homo sapiens with 6 samples.

Results

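Receptor tyrosine kinases with their Eph and ephrin branches were followed in HCCLM3, a metastatic line of human hepatocellular carcinoma, after 24 h of CC-885 or of DMSO, its solvent. The 42 genes were taken by name from the table of gene counts: 28 receptor tyrosine kinases, 8 Eph receptors and 6 ephrins, of 20263 genes in all. CC-885 is a cereblon modulator, a small molecule that brings new proteins to the CUL4-CRBN ubiquitin ligase, among them the translation termination factor GSPT1. The comparison asks which genes respond to CC-885 in liver cancer cells. Each group held 3 RNA-seq libraries of the same line, and the labels name neither the dose nor separate cultures. The p-values therefore weigh the difference between the groups against the spread among these libraries, and that spread may be technical.

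A receptor tyrosine kinase spans the cell membrane. Its ligand brings receptors together, the kinase domains phosphorylate each other, and adaptor proteins bound to the phosphorylated tails switch on RAS-ERK and PI3K signalling. Eph receptors are the largest family of these kinases and differ from the rest in that their ligands, the ephrins, sit on the surface of neighbouring cells: A-type ephrins by a lipid anchor and B-type ephrins by a membrane-spanning segment. In liver cancer MET, FGFR4, AXL and IGF1R are among the receptors studied as drivers of growth or spread.

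The libraries held 30432509 to 39809131 counts, and levels are given as CPM, counts scaled to library size. A gene at 0 counts could still be at up to 0.0754 to 0.0986 CPM, depending on the library, by a limit of 3 counts that covers only the error of counting. Among counts from 1 to 20, 65.5 to 67.8% were even numbers, so fragments may have been counted by their 2 reads, and such limits are then too low. The groups were well apart: log2 CPM correlated at 0.977 or more within a group and at 0.946 or less between groups. Of 12 hepatocyte markers, ALB, AFP, APOB, TTR, FOXA2 and AHSG were among those at 0 in every library. The summed level of all 12 ran from 0.232 to 0.572 CPM with CC-885 and from 1.23 to 1.55 CPM with DMSO. HNF4A made up most of the sum with DMSO, at 1.25 ± 0.184 CPM, and stood at 0.214 ± 0.183 CPM with CC-885 (mean ± SD, n = 3). In both groups these cells thus showed little of the liver cell program that their label names. Epithelial markers summed to 1379 to 2251 CPM, nearly all of it keratins KRT8 and KRT18, and of the 8 leukocyte markers PTPRC, CD3E and LYZ were at 0. In bulk RNA, fewer cells of a type and less RNA per cell cannot be told apart.

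Of the 42 genes, 28 passed the filter on low counts and 14 did not. Among the 28 tested, 7 were higher and 10 lower with CC-885 (edgeR quasi-likelihood test, Benjamini-Hochberg adjusted p below 0.05 over 13444 genes), 60.7% in all. Over all tested genes 25.8% were higher and 26.8% lower, 52.6% in all, so the share of these genes that changed was near that of the transcriptome. Their median log2 fold change was 0.07 and their median absolute log2 fold change 0.49, beside -0.04 and 0.50 over all tested genes. Changes of at least 2-fold were called for 5 higher genes (EPHA2, ROR1, DDR2, EFNA1 and EFNB2) and 3 lower ones (PDGFRB, LTK and EPHA7). LTK passed the filter on low counts only through its DMSO libraries, so at its level only a lower call was open. Over all genes 8.23% were called higher and 10.3% lower by that much. The count of lower genes was the least firm: without CC-885 replicate 3 or without DMSO replicate 1 it fell to 6.

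**Figure D1:**
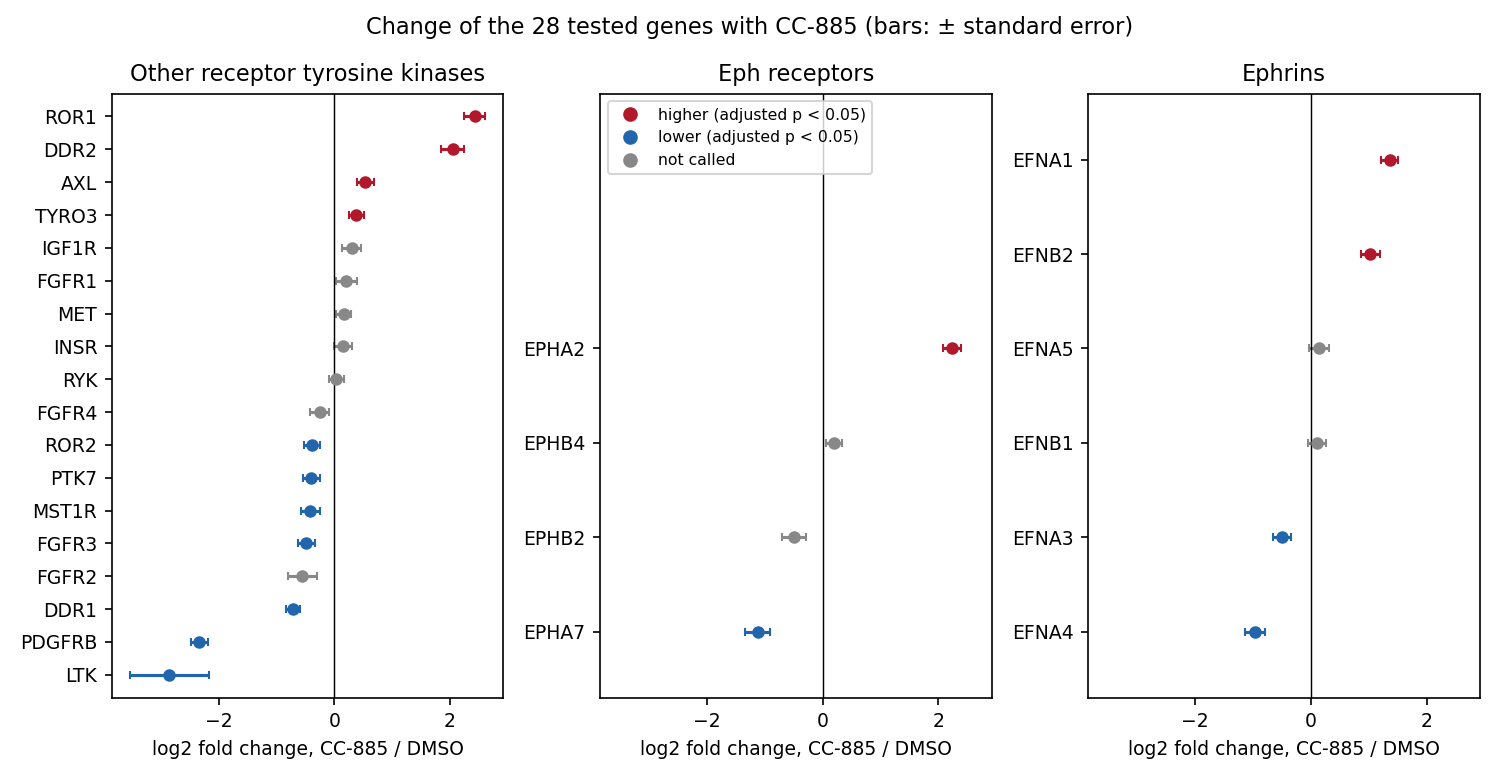
Log2 fold change of CC-885 over DMSO (horizontal axis) for the 28 tested genes by family, with the standard error as bars, red for genes called higher, blue for lower and grey for not called. EPHA2 at 2.23 and ROR1 at 2.43 lie farthest to the right, and PDGFRB at -2.33 and LTK at -2.85 farthest to the left.

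Promoters are shown for 4 genes on which the account below turns: EPHA2, its ligand EFNA1 and ROR1, which rose, and PDGFRB, which fell. Motifs were searched on both strands in the 250 bases before each start. Each line gives the 250 bases before the gene's start, read 5′ to 3′ on the gene's strand, from RefSeq on GRCh38.p14, where 41 of the 42 genes have a promoter in the table. Capitals mark the GC box GGGCGG, a site of SP factors, on either strand, and the cyclic AMP response element TGACGTCA, the palindrome bound by CREB and ATF factors.
EPHA2 (chr1:16156070-16156319, minus strand): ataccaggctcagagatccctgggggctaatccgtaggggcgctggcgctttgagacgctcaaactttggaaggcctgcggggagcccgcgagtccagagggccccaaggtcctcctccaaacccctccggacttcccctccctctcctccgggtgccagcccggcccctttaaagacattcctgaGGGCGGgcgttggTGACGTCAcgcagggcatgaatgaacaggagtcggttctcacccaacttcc
EFNA1 (chr1:155127626-155127875, plus strand): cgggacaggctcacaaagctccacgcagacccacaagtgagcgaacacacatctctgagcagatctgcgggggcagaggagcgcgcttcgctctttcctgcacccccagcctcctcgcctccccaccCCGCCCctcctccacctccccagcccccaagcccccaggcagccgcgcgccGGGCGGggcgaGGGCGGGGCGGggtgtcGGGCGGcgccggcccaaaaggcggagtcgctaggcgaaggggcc
ROR1 (chr1:63773767-63774016, plus strand): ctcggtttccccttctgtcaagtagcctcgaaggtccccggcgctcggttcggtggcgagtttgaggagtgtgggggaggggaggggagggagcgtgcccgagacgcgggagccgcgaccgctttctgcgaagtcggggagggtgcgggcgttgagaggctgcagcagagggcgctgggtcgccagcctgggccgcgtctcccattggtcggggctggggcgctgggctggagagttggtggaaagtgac
PDGFRB (chr5:150155846-150156095, minus strand): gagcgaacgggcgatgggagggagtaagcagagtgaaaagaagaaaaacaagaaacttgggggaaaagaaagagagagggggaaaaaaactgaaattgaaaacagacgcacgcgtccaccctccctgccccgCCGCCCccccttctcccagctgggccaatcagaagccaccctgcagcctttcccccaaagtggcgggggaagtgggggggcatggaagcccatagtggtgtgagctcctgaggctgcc

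EPHA2 holds the letters TGACGTCA with their start 51 bases before the gene's start. These letters occur in 2 of the 69 promoters listed for the 41 genes (EPHA2 and FLT1) and in 1.65% of all 35116 promoters of the same length. The GC box stood in 48 of the 69 promoters (69.6%) and in 42.6% of all promoters. The AP-1 element TGANTCA was found in 3 of the 69 (DDR1, PDGFRA and TYRO3, 4.35%) against 6.57% of all, and the E-box CACGTG in 2 (ALK and FGFR4) against 6.34%. The ATF4-type element TGATGCAA and the EGR1 site GCGTGGGCG, searched on both strands, were in 0 of the 69 and in 0.772% and 0.72% of all promoters. The letters TATAAA were in 5 (7.25%) against 10.7% of all. Several genes have more than 1 listed start and such windows can share bases. By base composition the promoters of EFNA1 (73.2% G or C, 24 CpG) and ROR1 (69.2%, 24 CpG) lay above the median of all promoters (58%, 11 CpG), and that of PDGFRB (58.4%, 9 CpG) near it. A match describes the letters alone.

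EPHA2, the Eph receptor of epithelial cells whose ligand-free form drives migration in many tumours, rose most in absolute terms. EPHA2 (ENSG00000142627) stood at 457, 506 and 409 CPM in CC-885 replicates 1 to 3 and at 99.7, 83.1 and 109 CPM in DMSO replicates 1 to 3, after scaling by TMM factors as for every CPM below. The lowest CC-885 library was far above the highest DMSO library. EPHA2 was thus 4.71-fold higher (457 ± 48.3 against 97.1 ± 13.0 CPM, mean ± SD, n = 3, log2 fold change 2.23, SE 0.16, edgeR adjusted p = 1.52e-06) and ranked 94 by p among the 13444 genes tested. Its promoter is the first printed above, with the cyclic AMP element.

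The other measured Eph receptors did not follow EPHA2. EPHB4, the partner of ephrin-B2 in vessel and epithelial patterning, gave 109.9, 106 and 91.0 CPM with CC-885 and 92.0, 78.2 and 97.8 CPM with DMSO, with overlapping groups and no call (log2 fold change 0.19, SE 0.14, edgeR adjusted p = 0.246). It overlaps SLC12A9 on the opposite strand. No source says that strand was used in counting, and without it such reads cannot be assigned to either gene. EPHA7, best known from axon guidance, went the other way, at 3.83, 4.52 and 2.99 CPM against 6.97, 10.6 and 7.21 CPM. EPHA7 was 2.18-fold lower (log2 fold change -1.12, SE 0.22, edgeR adjusted p = 0.00137), and its groups did not overlap. EPHB2, a receptor of intestinal crypt positioning, was at 2.37 ± 0.27 CPM against 3.34 ± 0.462 CPM (n = 3) and was not called (log2 fold change -0.49, edgeR adjusted p = 0.0686), although it passed as lower without DMSO replicate 2 (adjusted p = 0.0400) and with scaling by library size alone (adjusted p = 0.0432).

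The other 4 Eph receptors were near the limit of detection. EPHB3 gave 1, 0 and 2 counts with CC-885, 6, 18 and 10 counts with DMSO, and did not pass the filter. Without that filter EPHB3 was called lower (edgeR adjusted p = 0.0148). EPHA1 had at most 2 counts in any library, and EPHA4 and EPHB6 had 0 counts in all 6.

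Among the ephrins, the A-type ligand EFNA1 and the B-type ligand EFNB2 rose. EFNA1, the preferred ligand of EPHA2 and a gene induced by inflammatory cytokines, read 159.8, 174 and 131 CPM with CC-885 against 61.1, 65.2 and 55.1 CPM with DMSO. The lowest CC-885 library was well above the highest DMSO library. EFNA1 (ENSG00000169242) was 2.57-fold higher (log2 fold change 1.36, SE 0.14, edgeR adjusted p = 2.21e-05). EFNB2, the ligand of EPHB4, read 19.99, 24.98 and 22.5 CPM against 10.4, 9.56 and 13.2 CPM. EFNB2 was 2.03-fold higher (log2 fold change 1.02, SE 0.16, edgeR adjusted p = 0.000377) with no overlap, and has AL138689.2 on the opposite strand.

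EFNA4 and EFNA3 fell while their neighbour EFNA1 rose. The 3 genes follow each other on chromosome 1 with no other coding gene between them. EFNA4 read 6.23, 5.25 and 4.62 CPM with CC-885 and 11.02, 11.6 and 8.75 CPM with DMSO, a 1.95-fold lower level (log2 fold change -0.96, SE 0.18, edgeR adjusted p = 0.000994). EFNA3 read 6.36, 5.98 and 5.58 CPM against 8.67, 8.14 and 8.56 CPM, 1.42-fold lower (log2 fold change -0.50, SE 0.15, edgeR adjusted p = 0.0156). Neither gene's groups overlapped, but EFNA3 missed the threshold at 0.0578 with CC-885 replicate 2 dropped, at 0.0540 with CC-885 replicate 3 dropped and at 0.0610 with DMSO replicate 1 dropped. Both share exons with AL691442.1 on their own strand, so their counts are less certain. EFNA5 (11.98 ± 0.766 against 10.8 ± 1.98 CPM, n = 3, log2 fold change 0.14) and EFNB1 (11.1 ± 1.07 against 10.3 ± 1.12 CPM, n = 3, log2 fold change 0.11) were not called, with overlapping groups.

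**Figure D2:**
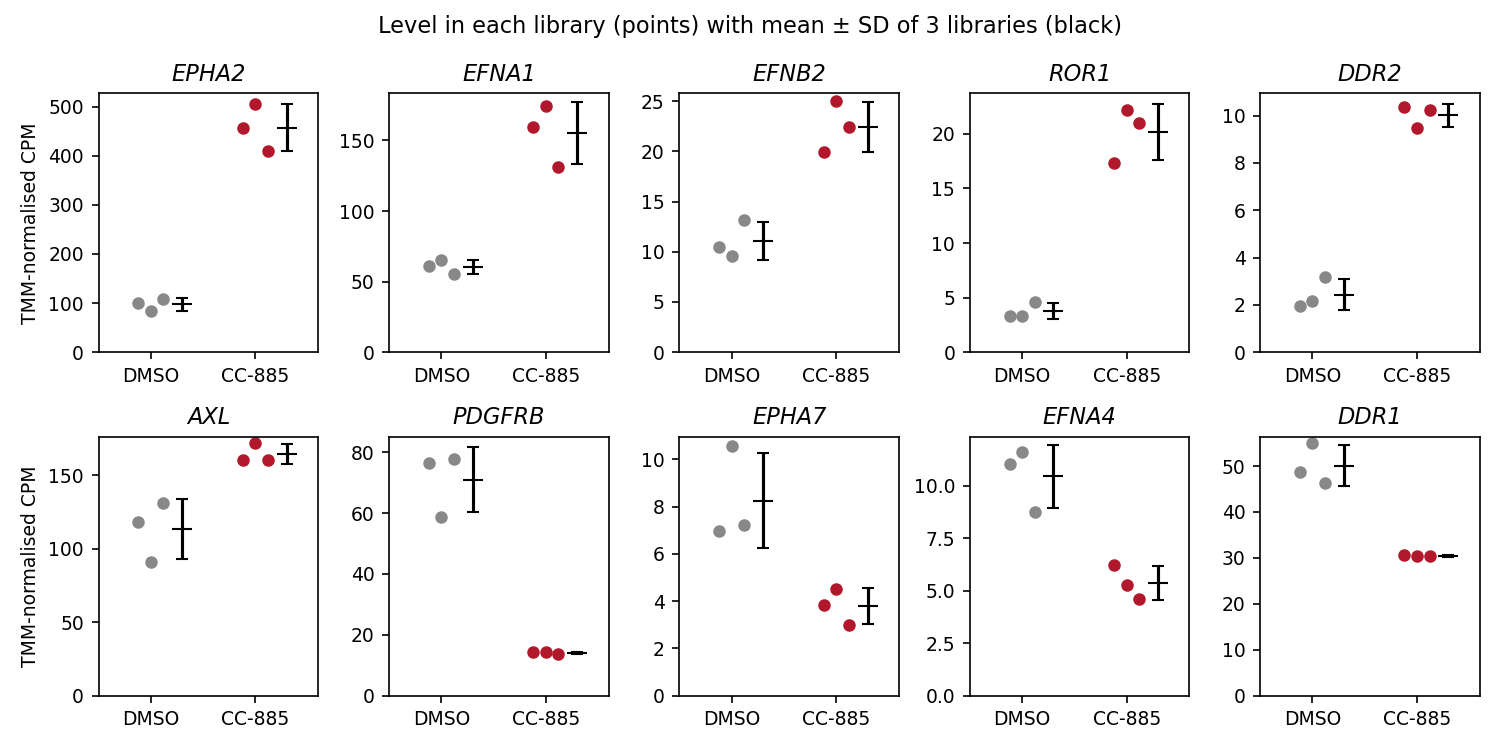
TMM-normalised CPM (vertical axes, each from 0) of 10 genes in every DMSO library (grey) and CC-885 library (red), with the mean ± SD of 3 libraries in black. The groups do not overlap in any of the 10 panels, and the CC-885 libraries of PDGFRB lie between 13.6 and 14.3 CPM, below all DMSO libraries.

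Because a longer transcript gives more reads, levels were compared between genes as CPM per kb of merged exons (GENCODE 29). On this scale EPHA2 took 60.7, 58.9 and 61.2% of the summed level of the 8 Eph receptors in the DMSO libraries and 86.0, 87.6 and 86.9% in the CC-885 libraries. EPHB4 made up most of the rest, 35.9 ± 0.261% with DMSO and 12.6 ± 0.775% with CC-885 (n = 3). The summed level of Eph receptors went from 38.7 ± 4.45 to 127 ± 12.9 CPM per kb (n = 3), and nearly all of that gain was EPHA2. The ephrins behaved alike: EFNA1 held 54.1, 55.8 and 53.3% of the summed ephrin level with DMSO and 77.6, 79.6 and 76.2% with CC-885, while EFNA4 went from 18.9 ± 1.605% to 5.43 ± 0.632% (n = 3). The ratio of EPHA2 to its ligand EFNA1 was 0.778 to 1.20 in the DMSO libraries and 1.74 to 1.90 in the CC-885 libraries. These shares include the changes described above and add no separate test.

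**Figure D3:**
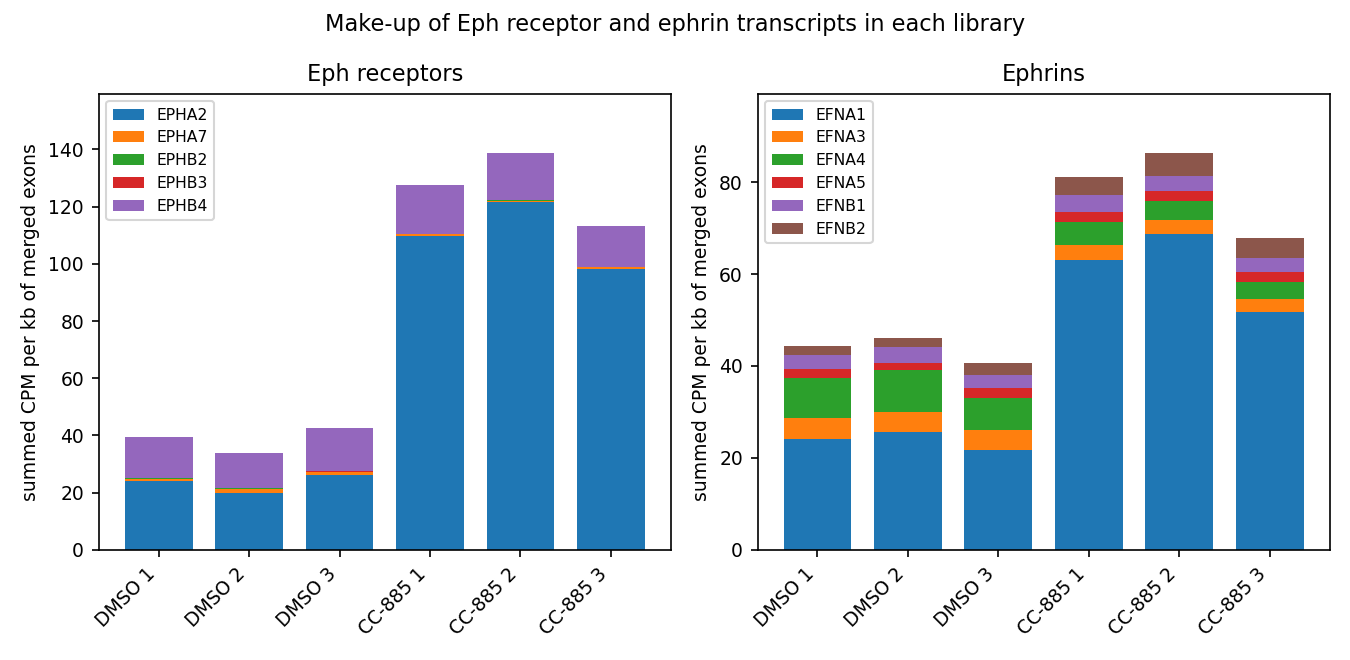
Summed CPM per kb of merged exons (vertical axis) of the Eph receptors (left) and ephrins (right) in each library, stacked by gene. The EPHA2 block grows most from DMSO to CC-885 among receptors, and the EFNA1 block among ephrins.

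ROR1 and ROR2, receptors of WNT5A that carry little or no kinase activity, changed in opposite directions. ROR1, an embryonic receptor that reappears in tumours, read 17.3, 22.2 and 21.0 CPM with CC-885 and 3.32, 3.32 and 4.63 CPM with DMSO. It was 5.37-fold higher (log2 fold change 2.43, SE 0.19, edgeR adjusted p = 2.87e-06), with the CC-885 libraries all far above the others. ROR2 read 70.2, 70.6 and 61.9 CPM against 95.1, 76.5 and 93.1 CPM, 1.31-fold lower (log2 fold change -0.39, SE 0.13, edgeR adjusted p = 0.0282). The groups of ROR2 did not overlap, but its call was lost when any library except DMSO replicate 2 was left out (adjusted p from 0.0512 to 0.109). Per kb ROR2 exceeded ROR1 23.2 to 33.1 times in the DMSO libraries and 3.40 to 4.69 times in the CC-885 libraries. WNT5A itself was at 19.5 ± 1.61 against 22.4 ± 1.17 CPM (n = 3) and was not called (log2 fold change -0.20, edgeR adjusted p = 0.226).

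The collagen receptors DDR1 and DDR2 also moved apart. DDR2, the form of mesenchymal cells that binds fibrillar collagen, read 10.4, 9.46 and 10.2 CPM with CC-885 and 1.96, 2.18 and 3.16 CPM with DMSO. It was 4.12-fold higher (log2 fold change 2.04, SE 0.20, edgeR adjusted p = 1.51e-05). DDR1, the epithelial form, read 30.7, 30.3 and 30.4 CPM against 48.8, 55.1 and 46.4 CPM, 1.64-fold lower (log2 fold change -0.72, SE 0.12, edgeR adjusted p = 6.00e-04). Neither gene's groups overlapped, and DDR1 shares an exon with the microRNA gene MIR4640. Per kb DDR1 exceeded DDR2 17.3 to 29.7 times with DMSO and 3.49 to 3.77 times with CC-885. COL1A1, a chain of the fibrillar collagen that both bind, was higher (155 ± 16.3 against 104 ± 6.22 CPM, n = 3, log2 fold change 0.58, edgeR adjusted p = 0.00327), and COL4A1 was not called (log2 fold change 0.21). Of the epithelial markers KRT8, with KRT18 on its opposite strand, was lower (log2 fold change -0.49, edgeR adjusted p = 0.0236). KRT18 (log2 fold change -0.21, adjusted p = 0.263), CDH1, EPCAM and CLDN4 were not called, and the part of these markers in the fall of DDR1 was not tested.

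PDGFRB, the receptor by which PDGF-B recruits pericytes and stellate cells, fell to about the same level in every treated library. PDGFRB (ENSG00000113721) read 14.3, 14.2 and 13.6 CPM with CC-885 and 76.5, 58.6 and 77.6 CPM with DMSO. It was 5.05-fold lower (14.1 ± 0.370 against 70.9 ± 10.7 CPM, n = 3, log2 fold change -2.33, SE 0.15, edgeR adjusted p = 8.63e-07), ranking 49 by p among all genes tested. Of its ligand genes, PDGFD was lower (log2 fold change -0.96, edgeR adjusted p = 0.00563), with DDI1 on its opposite strand, and PDGFB at -0.45 was not called (adjusted p = 0.0524). PDGFA, which encodes a ligand of PDGFRA, was lower (log2 fold change -0.63, adjusted p = 0.00552). Of 8 fibroblast and pericyte markers 5 were tested, and LUM was at 0. Of the 5, 3 were lower (DCN, RGS5 and THY1), 1 was higher (COL1A1) and COL3A1 was not called. That is 80% called, against 52.6% of all tested genes. The CC-885 libraries alone did not take DCN or THY1 past the filter on low counts, so at their level only a lower call was open. The summed level of the list, mostly COL1A1, ran from 143 to 176 CPM with CC-885 and from 108 to 121 CPM with DMSO, and its part in the fall of PDGFRB was not tested. PDGFRA and KIT, close relatives of PDGFRB, had at most 2 and 4 counts in any library.

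AXL and TYRO3, receptors that GAS6 and protein S activate, rose modestly. AXL, a receptor tied to invasion and drug resistance, read 161, 172 and 160.1 CPM with CC-885 and 118, 91.1 and 131 CPM with DMSO, 1.45-fold higher with no overlap (log2 fold change 0.53, SE 0.15, edgeR adjusted p = 0.0105). TYRO3 read 63.6, 61.9 and 53.4 CPM against 41.5, 46.3 and 49.5 CPM, 1.30-fold higher (log2 fold change 0.38, SE 0.13, edgeR adjusted p = 0.0271). TYRO3 missed the threshold when a single library was dropped, at an adjusted p of 0.0983 for CC-885 replicate 1, 0.0967 for CC-885 replicate 2 and 0.112 for DMSO replicate 1, and also with scaling by library size alone (0.0520) or when only genes reaching 5 CPM in 3 libraries were kept (0.0563). MERTK, the third of this family, had at most 4 counts in any library. Of the ligands, PROS1, which encodes protein S, was lower (17.6 ± 1.83 against 46.9 ± 10.6 CPM, n = 3, log2 fold change -1.41, edgeR adjusted p = 6.72e-05), while GAS6 was not called (log2 fold change -0.07, adjusted p = 0.754). AXL overlaps AC011510.1 on the opposite strand.

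MET, the HGF receptor, had the highest level per kb of the 28 genes with DMSO, and was not called. It read 211, 221 and 241 CPM with CC-885 and 194, 186 and 223 CPM with DMSO, with overlapping groups (log2 fold change 0.16, SE 0.13, edgeR adjusted p = 0.332). HGF had 0 counts in all 6 libraries. MST1R, the related receptor RON, read 42.3, 40.1 and 31.2 CPM against 60.0, 45.8 and 45.5 CPM and was 1.33-fold lower (log2 fold change -0.41, SE 0.16, edgeR adjusted p = 0.0456). MST1R missed the threshold at adjusted p = 0.0770 with CC-885 replicate 2 dropped, 0.176 with CC-885 replicate 3 dropped, 0.216 with DMSO replicate 1 dropped and 0.0569 under limma-voom. Leaving out DMSO replicate 1 took its log2 fold change to -0.27. Its ligand gene MST1 was not called (log2 fold change -0.39, adjusted p = 0.145). MST1R overlaps AC105935.1 and AC105935.2 on the opposite strand.

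The insulin family receptors were not called. IGF1R, the receptor of both insulin-like growth factors, read 442, 423 and 424 CPM with CC-885 and 355, 275 and 417 CPM with DMSO. All CC-885 libraries lay above the DMSO libraries, by little in the case of DMSO replicate 3 (log2 fold change 0.30, SE 0.16, edgeR adjusted p = 0.143). Without DMSO replicate 3 IGF1R passed as higher (log2 fold change 0.45, adjusted p = 0.0222). INSR, the insulin receptor, read 54.5, 52.8 and 46.9 CPM against 50.04, 36.2 and 53.0 CPM and overlapped (log2 fold change 0.15, SE 0.16, adjusted p = 0.448). Their ligand IGF1 was called lower from a low level, with 0, 0 and 6 counts under CC-885 but 38, 33 and 24 under DMSO (edgeR adjusted p = 0.00157). IGF1 passed the filter on low counts only through its DMSO libraries. IGF2 was not called (log2 fold change -0.60, adjusted p = 0.284), and INS had 0 counts throughout. IGF1 and IGF2 each have a gene on the opposite strand. IGF2 and INS also share exons with INS-IGF2 on their own strand, so their counts are less certain.

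Of the 4 FGF receptors only FGFR3 was called. FGFR3 read 45.9, 51.4 and 41.1 CPM with CC-885 and 69.5, 70.0 and 54.3 CPM with DMSO, 1.40-fold lower (log2 fold change -0.49, SE 0.14, edgeR adjusted p = 0.0142), which no longer held after dropping CC-885 replicate 3 (adjusted p = 0.0652) or DMSO replicate 1 (0.0597). FGFR4, the hepatocyte receptor of FGF19, read 26.6, 20.6 and 18.7 CPM against 28.95, 27.1 and 22.4 CPM with overlap (log2 fold change -0.25, adjusted p = 0.220). FGFR1 was at 79.2 ± 6.64 against 68.7 ± 17.9 CPM (n = 3, log2 fold change 0.21, adjusted p = 0.365) and overlaps LETM2 on the opposite strand. FGFR2 was low, at 1.86 ± 0.472 against 2.73 ± 0.498 CPM (n = 3, log2 fold change -0.55, adjusted p = 0.0885), and passed as lower without CC-885 replicate 2 (adjusted p = 0.0482) or DMSO replicate 3 (0.0462). Of the ligand genes, FGF1, which binds all FGF receptors, was 11.9-fold higher (7.36 ± 0.548 against 0.622 ± 0.197 CPM, n = 3, edgeR adjusted p = 1.52e-06), and FGF2 was 1.90-fold higher (105 ± 0.353 against 55.3 ± 6.05 CPM, n = 3, adjusted p = 0.000118), with NUDT6 on its opposite strand.

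Of the pseudokinases PTK7 and RYK, which act in Wnt signalling, PTK7 fell. PTK7 read 42.002, 33.3 and 39.9 CPM with CC-885 and 52.2, 43.5 and 56.0 CPM with DMSO, 1.32-fold lower (log2 fold change -0.40, SE 0.14, edgeR adjusted p = 0.0350). PTK7 missed the threshold with CC-885 replicate 2 dropped (adjusted p = 0.174), as it did for CC-885 replicate 3 (0.0677), DMSO replicate 1 (0.101) and DMSO replicate 3 (0.0934). RYK read 126, 144 and 148 CPM against 124, 149 and 135 CPM, the smallest change of the 28 (log2 fold change 0.04, SE 0.13, edgeR adjusted p = 0.837). LTK, a receptor of ALKAL ligands, fell from a low level, with 3, 6 and 0 counts under CC-885 but 30, 30 and 11 under DMSO (log2 fold change -2.85, SE 0.68, edgeR adjusted p = 0.00457). Only the DMSO libraries took LTK past the filter on low counts. ALK, its paralog, had at most 6 counts in any library.

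The receptors of other lineages were at or near 0. KDR, the main VEGF receptor of endothelium, and the neurotrophin receptors NTRK2 and NTRK3 had 0 counts in all 6 libraries. RET, a receptor of neural crest cells, had 2 counts in a single DMSO library, and TEK, the angiopoietin receptor, had 6 and 2 counts in DMSO replicates 1 and 3 and 0 elsewhere. FLT1, the VEGF decoy receptor, gave 4, 5 and 8 counts with CC-885 and 2, 0 and 0 with DMSO, too few for a test. PDGFRA, KIT and KDR, all near 0, follow each other on chromosome 4 with no other coding gene between them. The endothelial markers EMCN and TIE1 were at 0 in every library and PECAM1, CLDN5 and ROBO4 below 0.5 CPM in each. Of the 8 endothelial markers 5 were not tested, and the 3 tested were all higher, where 25.8% of all tested genes were. The endothelial cadherin CDH5 was 12.3-fold higher from a low level (2.11 ± 0.366 against 0.168 ± 0.0143 CPM, n = 3, edgeR adjusted p = 9.90e-06), ESAM 3.40-fold (adjusted p = 0.00980) and VWF 2.02-fold (adjusted p = 0.0232). CDH5 passed the filter on low counts only through its CC-885 libraries. The summed endothelial list ran from 73.3 to 175 CPM with CC-885 and from 33.6 to 49.1 CPM with DMSO, almost all of it ESAM, and its part in the FLT1 counts was not tested. The ligand BDNF rose 4.79-fold (122 ± 8.09 against 25.5 ± 1.98 CPM, n = 3, log2 fold change 2.26, edgeR adjusted p = 4.44e-07) although its receptor NTRK2 was at 0, and it overlaps BDNF-AS on the opposite strand.

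**Figure D4:**
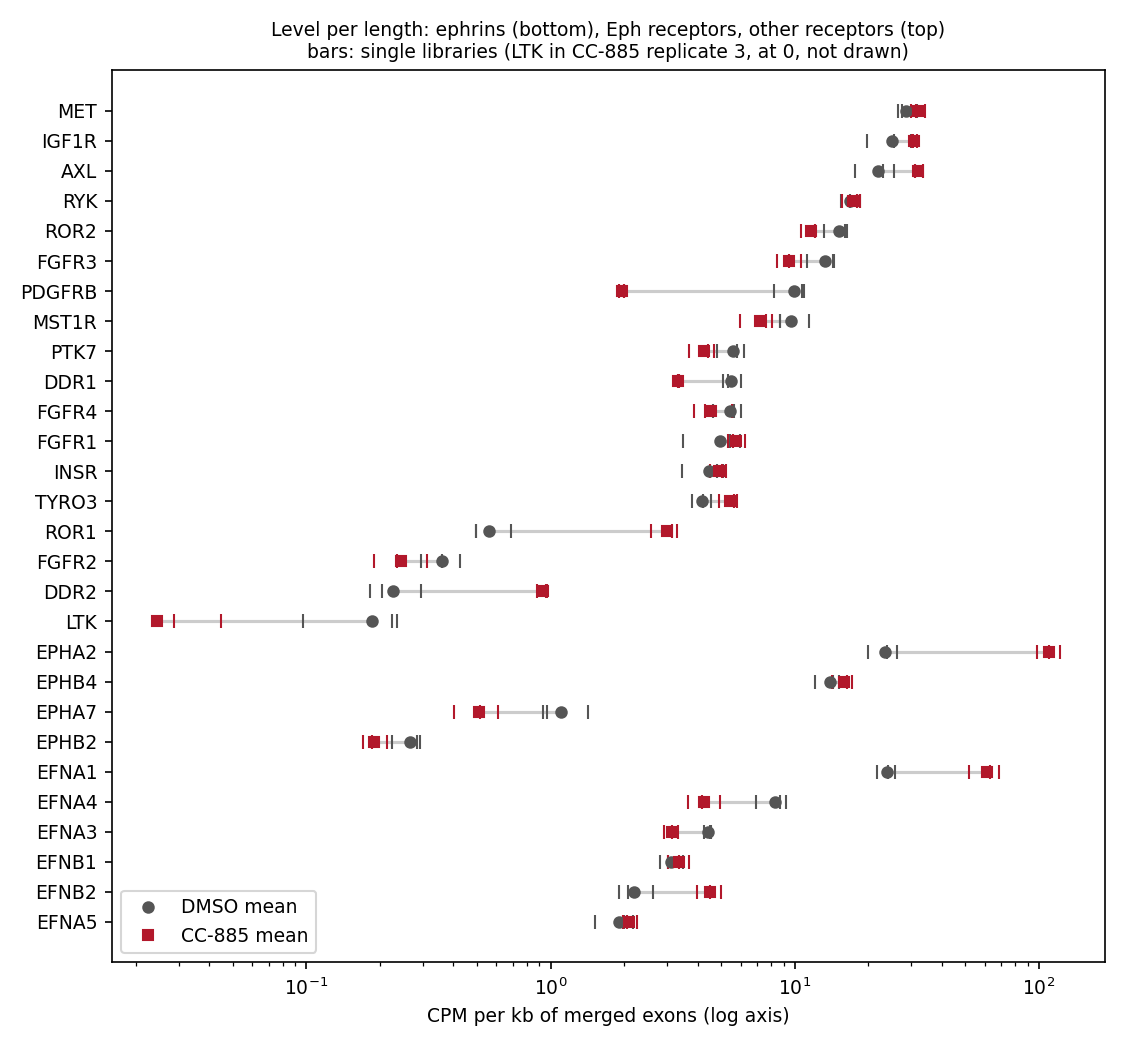
Mean CPM per kb of merged exons (horizontal log axis) of the 28 tested genes with DMSO (grey circles) and CC-885 (red squares), small bars marking single libraries. EPHA2 moves from 23.3 to 109.9 and EFNA1 from 23.8 to 61.1, while PDGFRB moves from 9.94 to 1.97.

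The order of levels changed at its top. With DMSO the order per kb was MET (28.5), IGF1R (25.04), EFNA1 (23.8), EPHA2 (23.3) and AXL (22.0), and each of these 5 overlapped the next in its libraries. With CC-885 EPHA2 (109.9) and EFNA1 (61.1) stood alone, followed by AXL (31.9), MET (31.9) and IGF1R (30.8), which overlapped each other. The summed level of the 28 receptors outside the Eph family was 175 ± 2.83 CPM per kb with CC-885 and 172 ± 14.4 with DMSO (n = 3). PDGFRB went from 5.76 ± 0.423% to 1.13 ± 0.0180% of that sum and AXL from 12.7 ± 1.27% to 18.2 ± 0.492% (n = 3). Merged exons include parts that a cell may not use, so levels per kb understate genes with many isoforms.

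The size of the spread between libraries of a group was close to that of other genes. The median coefficient of variation of the 28 was 9.65% with CC-885 and 14.1% with DMSO, beside 9.88% and 14.2% over all tested genes. CC-885 replicate 3 was the lowest of its group for 17 of the 28 (60.7%) against 41.0% of all tested genes, and DMSO replicate 2 for 14 (50%) against 39.9%. CC-885 replicate 1 was the highest for 16 (57.1% against 32.6%) and CC-885 replicate 3 for 2 (7.14% against 35.4%), while DMSO replicate 3 was the highest for 15 (53.6% against 36.9%). Which library was highest or lowest thus differed from the pattern over all genes, and the part of this in the calls beyond the fits with a library dropped was not tested. The groups did not overlap for 8 genes with CC-885 above and 11 with CC-885 below, where 29.9% and 31.2% of all tested genes were so placed.

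Genes around the receptors were counted in lists. Among the other receptor tyrosine kinases, 4 of 11 tested were higher and 2 lower, 54.5% called against 52.6% of all tested genes. EGFR was 2.14-fold higher (348 ± 18.0 against 163 ± 38.8 CPM, n = 3, edgeR adjusted p = 0.000343) and LMTK2 1.37-fold higher (adjusted p = 0.0158, but 0.0510 with CC-885 replicate 2 dropped), while ERBB2 was lower (log2 fold change -0.60, adjusted p = 0.00662). STYK1, a pseudokinase, had 0 counts with DMSO and a mean of 1.04 CPM with CC-885, 12.3-fold above a floor of 3 counts per library. That floor is too low if fragments were counted by their 2 reads. STYK1 passed the filter on low counts only through its CC-885 libraries. INSRR was lower (log2 fold change -1.24, adjusted p = 0.0195), but not once CC-885 replicate 1 (0.0742), DMSO replicate 1 (0.0843) or DMSO replicate 2 (0.0503) was dropped. For INSRR too, the CC-885 libraries alone did not pass the filter on low counts. EGFR, ERBB2 and INSRR each overlap a gene on the opposite strand. Of the other Eph receptors and ephrins, 1 of 3 tested was lower (EPHA5, log2 fold change -1.16, adjusted p = 0.00166, with EPHA5-AS1 on its opposite strand) and 0 higher.

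Of 24 tested ligands 6 were higher and 7 lower, 54.2% called against 52.6% of all tested genes. Besides those named with their receptors, VEGFC was 2.46-fold higher (log2 fold change 1.30, edgeR adjusted p = 0.00117), while PGF (-2.01, adjusted p = 6.42e-04) and VEGFB (-0.45, adjusted p = 0.0111), both ligands of FLT1, were lower. With CC-885 replicate 2 dropped, VEGFB was no longer called (adjusted p = 0.0507). VEGFA (log2 fold change 0.43, adjusted p = 0.0871) and KITLG (adjusted p = 0.0696) were not called. MDK, a heparin-binding growth factor, was lower from 1.14 ± 0.266 to 0.262 ± 0.168 CPM (n = 3, adjusted p = 0.00306). The CC-885 libraries alone did not take MDK past the filter on low counts. FGF21 was called higher from 0, 0 and 4 counts with DMSO to 13, 22 and 12 counts with CC-885 (adjusted p = 0.00474). FGF21 passed the filter on low counts only through its CC-885 libraries. Of 9 tested co-receptors and decoys 44.4% were called. Of these 1 was higher, the heparan sulfate proteoglycan SDC4 (log2 fold change 1.03, adjusted p = 0.000359), and 3 were lower: the neuropilins NRP2 (-1.41, adjusted p = 0.00400) and NRP1 (-0.81, adjusted p = 0.0236) and the syndecan SDC1 (-0.97, adjusted p = 0.0185). NRP1 missed the threshold once CC-885 replicate 2 (adjusted p = 0.0945) or DMSO replicate 1 (0.0548) was dropped, and SDC1 once CC-885 replicate 1 (0.0585) or DMSO replicate 3 (0.110) was. Both neuropilins have a gene on the opposite strand.

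Adaptors below the receptors had 10 of 32 tested higher and 5 lower (median log2 fold change 0.24), 46.9% called against 52.6% of all tested genes. IRS1, the docking protein of INSR and IGF1R, was 3.57-fold higher (118 ± 5.75 against 33.0 ± 7.63 CPM, n = 3, edgeR adjusted p = 8.70e-06), and GAB2, a docking protein for GRB2-bound receptors, was 3.51-fold higher (63.0 ± 3.02 against 18.0 ± 3.98 CPM, n = 3, adjusted p = 9.10e-06). SH2B3 was higher too (log2 fold change 1.25, adjusted p = 5.68e-05), with ATXN2 on its opposite strand. Lower were the PI3K subunits PIK3R3 (log2 fold change -0.84, adjusted p = 0.000130), PIK3R2 (-0.89, adjusted p = 0.000682) and PIK3CB (-0.39, adjusted p = 0.0170), the first 2 of which share exons with another gene on their strand. PIK3CB missed the threshold at adjusted p = 0.0736 with CC-885 replicate 1 dropped, 0.0823 with CC-885 replicate 2 dropped and 0.0549 with DMSO replicate 1 dropped.

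Negative regulators of receptors, listed together with sheddases, had 8 of 22 tested higher and 2 lower (median log2 fold change 0.25). In all 45.5% were called against 52.6% of all tested genes. ERRFI1, an inhibitor of EGFR family kinases, was 2.62-fold higher (81.7 ± 6.21 against 31.2 ± 1.98 CPM, n = 3, edgeR adjusted p = 7.72e-06), the sheddase ADAM17 1.57-fold (adjusted p = 0.000802) and the ubiquitin ligase CBL 1.84-fold (adjusted p = 0.00113). LRIG3 (log2 fold change -0.68, adjusted p = 0.00238) and RASA1 (-0.58, adjusted p = 0.00311), a GTPase activator of RAS that binds PDGFRB and EPHB receptors, were lower. ERRFI1, ADAM17, CBL and RASA1 each have a gene on the opposite strand.

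Among 17 tested effectors of Eph receptors and ephrins, 5 were higher and 2 lower, 41.2% called against 52.6% of all tested genes. ITSN1, an exchange factor for CDC42 downstream of EPHB2, was 1.98-fold higher (edgeR adjusted p = 0.000284), the guanine nucleotide exchange factor ARHGEF5 2.13-fold (adjusted p = 0.00261, with genes on its opposite strand) and CHN1 1.48-fold (adjusted p = 0.0202, but 0.0691 with CC-885 replicate 2 and 0.0998 with DMSO replicate 1 dropped). The lower genes were VAV3, an exchange factor that EPHA2 recruits, at 4.75 ± 0.385 against 18.6 ± 3.27 CPM (n = 3, log2 fold change -1.97, adjusted p = 6.54e-06), and RASA1. Genes induced by RAS-ERK signalling had 14 of 16 higher and 0 lower. Their median log2 fold change was 2.27, against 25.8% higher and a median of -0.04 over all tested genes. The ERK phosphatase gene DUSP5 was 21.0-fold higher (131 ± 16.1 against 6.24 ± 1.02 CPM, n = 3, adjusted p = 4.44e-08), the early response gene IER3 5.48-fold (adjusted p = 3.55e-07) and PHLDA1 4.42-fold (adjusted p = 8.85e-07), the last 2 with genes on the opposite strand. This list was chosen with the rise of such genes already known.

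**Figure D5:**
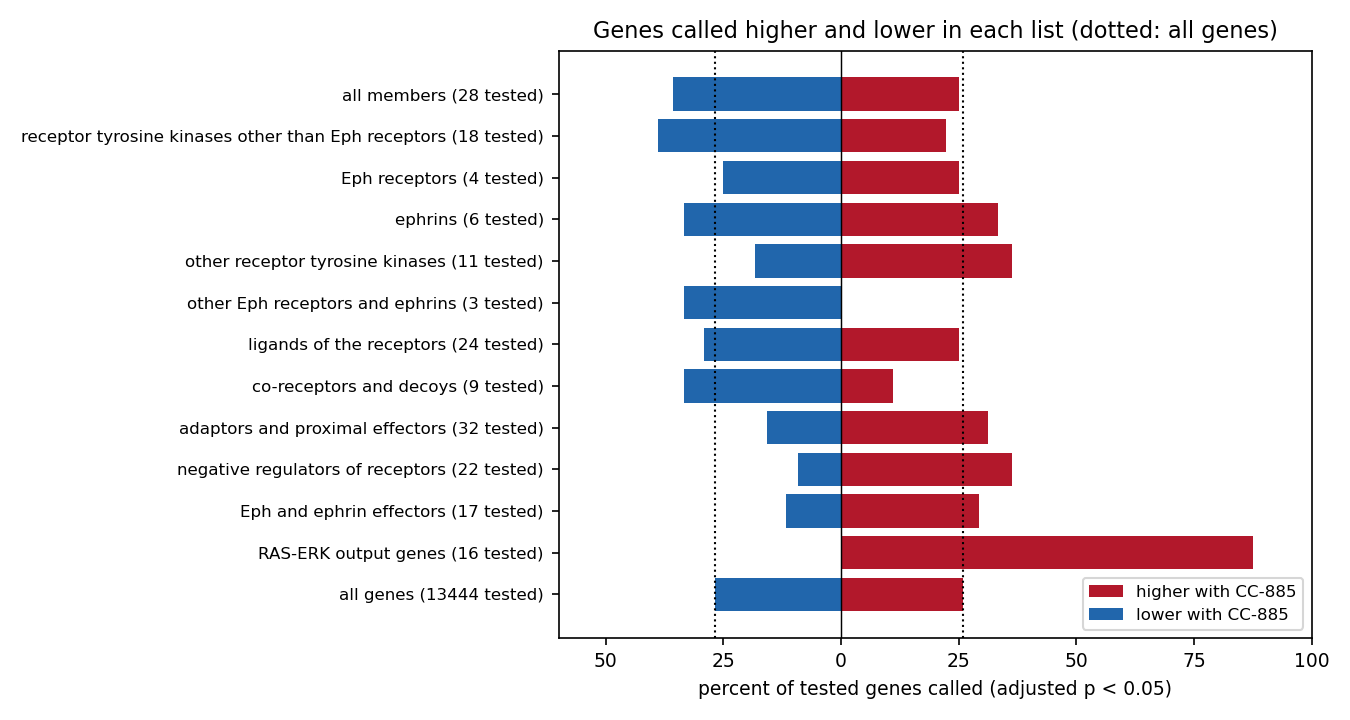
Percent of the tested genes of each list called higher (red, right) or lower (blue, left) with CC-885, dotted lines giving the shares over all 13444 tested genes. Of the 28 tested genes in the top bar (all members), 7 are called higher, near the dotted line, and 10 lower, past it, and the genes induced by RAS-ERK signalling reach 87.5% on the higher side.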

How the data were processed

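RNA-seq of 3 CC-885 and 3 DMSO libraries of HCCLM3 cells was analysed from the deposited gene table, whose values are whole-number counts without normalization, as the values themselves show. Of builds, only GRCm38 and mm10, both of mouse, are named by the submitters' processing notes, although the identifiers are human Ensembl genes. Names of the aligner, counter and annotation were not given in the sources used here. Gene names came from a table of symbols (20148 rows) or GENCODE 29 (76), and 39 rows had none.

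edgeR 4.0.16 in R 4.3.3 was fitted with TMM factors and no covariate to the 13444 genes that filterByExpr kept at a minimum count of 10, with robust quasi-likelihood dispersions. The procedure was tested on simulated data. Genes with a Benjamini-Hochberg adjusted p below 0.05 were called. The SE of a log2 fold change was approximated as its size divided by the root of F. Alternatives were size factors and the Wald test of DESeq2 1.42.0, voom in limma 3.58.1, library size only, no filter, a filter at 5 CPM in 3 libraries, a replicate block, each library left out, and halved counts, the last chosen after seeing the data. The genes, lists, motifs and ratios were chosen with earlier results of these data known. All 42 genes are named, every called ligand and those of the receptors described, and from other lists up to 3 higher and 3 lower called genes with the smallest p.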

Additional observations from a re-analysis of the deposited data

How the results depend on the processing

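Over 14 alternatives, 11 of the 17 calls were kept under each alternative that gave a value, and 6 (FGFR3, MST1R, TYRO3, EFNA3, ROR2 and PTK7) were lost under at least 1. LTK was not tested with halved counts or with the CPM filter. The number of higher genes was 6 to 8 and of lower genes 6 to 11 when single libraries were left out. The lower count of 6 includes EPHB3, which then passed the filter. Scaling, filters, other tests and halved counts kept both counts within 1.5 times. RYK, never called, changed sign with library size only (-0.0276), with the CPM filter (-0.0308), and within its range of -0.0242 to 0.119 with single libraries left out, all log2 fold changes. The causes were not tested. Whether the replicate numbers pair the libraries was not established. Deviations of same-numbered libraries correlated weakly, at 0.096, 0.031 and 0.072, and those of differently numbered libraries at -0.132 to 0.037. With the replicate block 7 genes were higher and 10 lower, as without it. The 6 lost calls were all changes under 1.5-fold, while AXL at 1.45-fold kept its call, and genes under about 10 counts were not tested.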
